A study of Mus with 8 samples.

Results

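A window of 15 Mb on mouse chromosome 10 was examined, chr10:105000000-120000000 of the mm9 build, which holds stretches where the sequenced input chromatin was far denser than in the rest of the genome. Its members were all C/EBPβ peaks whose start lies in the window, 368 of the 42729 peaks in the 4 deposited lists. The window had been selected on the same input values that are described here, so the input backgrounds, and the fold enrichments computed from them, are given as a description and no test was made on them.

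C/EBPβ ChIP-seq was performed in 3T3-L1, an established line of mouse fat cell precursors that turns into adipocytes under hormones. C cells had received the pLKO.1 lentivirus with a scrambled shRNA, and P cells a lentivirus whose shRNA lowers Prep1, a homeodomain transcription factor. Both lines were selected with puromycin. The sampling times were day −2, ahead of the stimulus, and 4 h past addition of the cocktail of dexamethasone, IBMX and insulin, and the C19 antibody was used for precipitation. The sample labels give 4 h, which is used here, whereas the peak names of these lists carry a tag of 5 h, and those of the day −2 lists 0 h. Each of the 8 groups, 4 ChIP and 4 input, holds 1 library, so differences between C and P cells or between times have no replicate check, and a difference between 2 infected cell populations cannot be told apart from an effect of the shRNA.

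Input is sheared chromatin sequenced without antibody. Its read density depends on the amount of DNA from each locus among other things, and a peak caller uses it as the background over which ChIP fragments must rise. What raised it in this window was not tested. C/EBPβ is a basic leucine zipper factor that binds early in adipogenesis and opens the way for later fat cell regulators. Mdm2, which the rule for the window places near 117.1 Mb, encodes the ubiquitin ligase that marks p53 for degradation, and it was first described as a gene amplified on the double minute chromosomes of a transformed mouse 3T3 line. In the GRCm38.p6 annotation, which was used for gene names and order alone, Mdm2 stands between Cpm, a membrane carboxypeptidase gene, and Slc35e3, a gene of the solute carrier family. Beyond these lie Cpsf6, a pre-mRNA cleavage factor gene, and the lysozyme genes Lyz1 and Lyz2 on the Cpm side, and Nup107, of the nuclear pore, and Rap1b, a small GTPase gene, on the Slc35e3 side. Peaks were not assigned to genes, since mm9 gene positions were not used here.

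The lists held 3 members of 838 peaks in C cells at day −2, 11 of 1653 in P cells at day −2, 95 of 13525 in C cells at 4 h and 259 of 26713 in P cells at 4 h. The input background under each summit is given as a multiple of the genome background. This is the peak caller's level for input reads spread evenly over its genome size, taken here as 2.7e9 bp. It was between 29.0 and 29.2 reads per 10 kb in the 4 lists. The multiples depend on that size, which was not checked against the part of the mouse genome that reads can be mapped to. The recovered read depth lay between 7.82 M and 7.85 M reads in the 4 lists. The background is the highest of 4 estimates, from the genome, a 10 kb window, a 1 kb window and a window of 1 fragment length. In that last window a single input read already equals 1.60 times the genome background in C cells at day −2 and 2.09 to 2.17 times in the other lists, so values under about 5 can rest on 2 reads.

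Background was called raised from 3 times the genome upward, and this held for 2 of 3 members in C cells at day −2, where 28.8% of the whole list reached it. It was found at 10 of 11 members in P cells at day −2, with 18.3% of the whole list. At 4 h it was found at 31 of 95 members in C cells, 32.6%, against 16.5% of the whole list, and at 152 of 259 members in P cells, 58.7%, against 18.2%. The raised share of the members was thus above that of the list in each case. At 4 h, 8 of the 31 raised members in C cells and 19 of the 152 in P cells rested on 2 reads, as did 1507 of 2228 raised peaks of the whole C list and 2981 of 4853 of the whole P list. A level of 10 times the genome was reached by 2 of 3 members in C cells at day −2, 66.7%, against 0.477% of all peaks of the list, and by 5 of 11 in P cells at day −2, 45.5%, against 0.605%. At 4 h it was reached by 16 of 95 members in C cells, 16.8%, against 0.355% of all peaks, and by 90 of 259 in P cells, 34.7%, against 0.588%. Of all 157 peaks of the P 4 h list at that level, 90 were members.

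**Figure D1:**
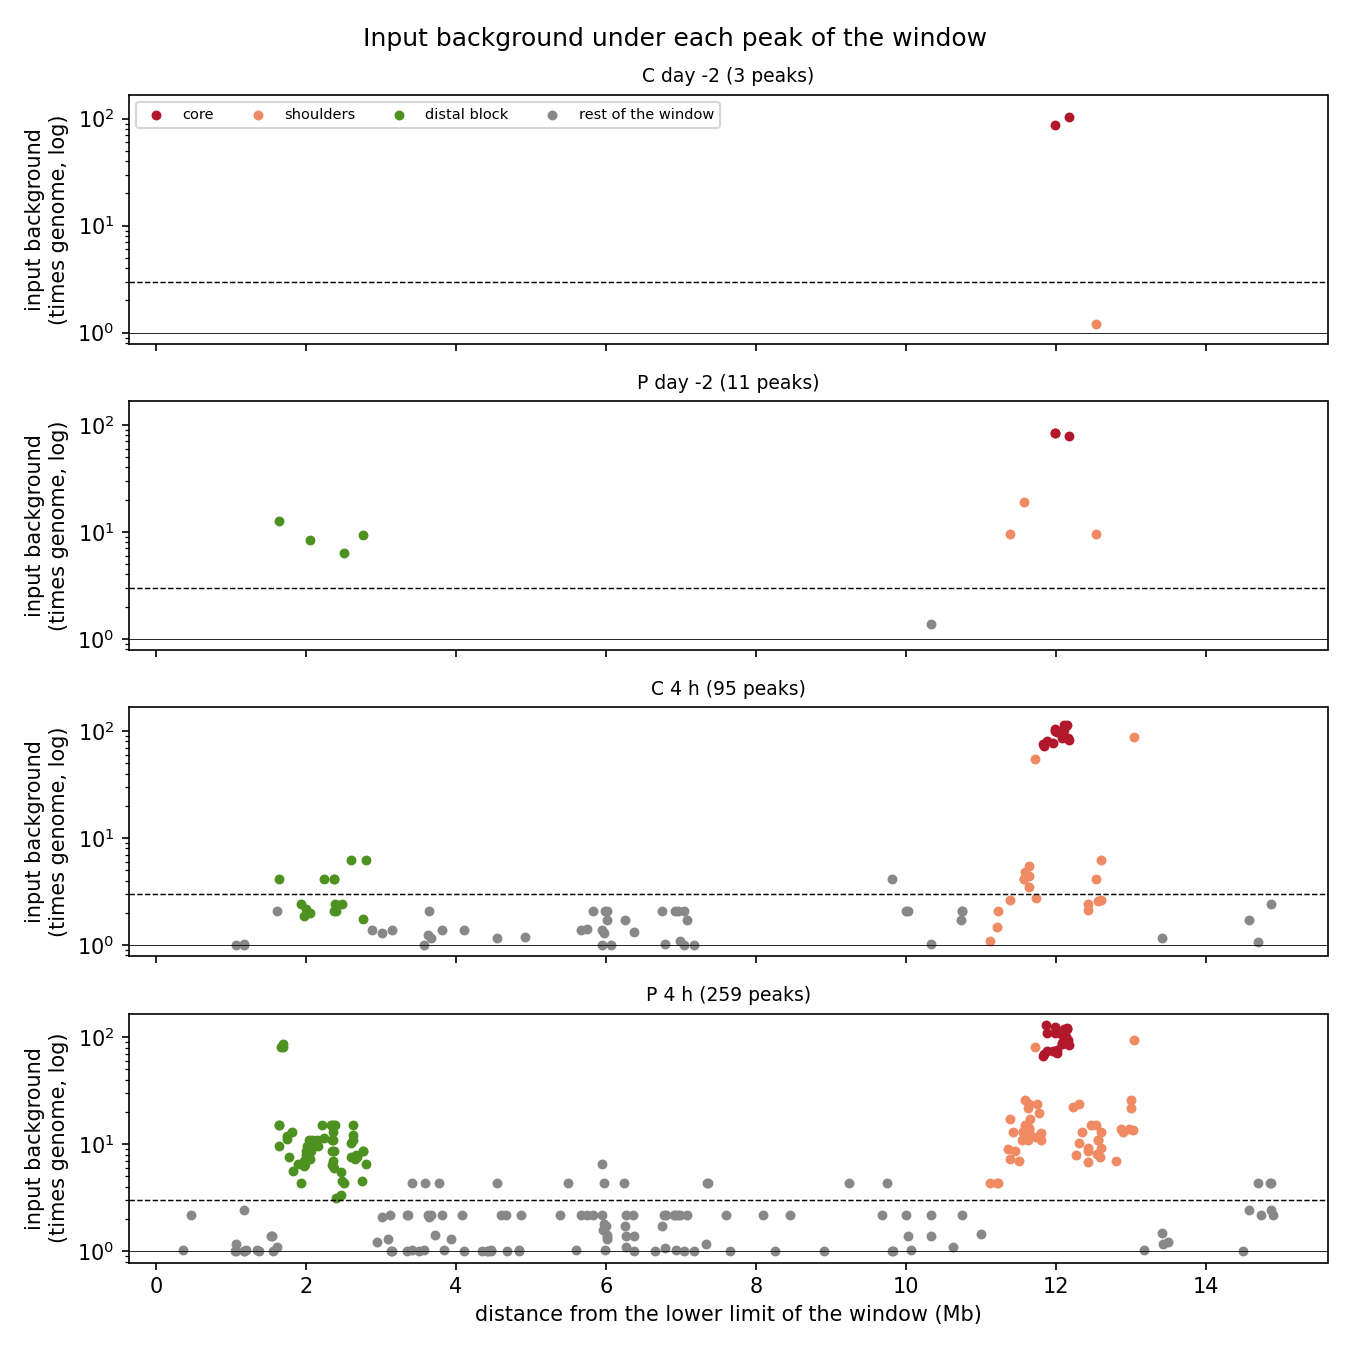
Input background under each member, in multiples of the genome background on a log axis, against the distance from the lower limit of the window, with 1 panel per list and 1 point per peak. The dashed line marks 3 times and the thin line the genome background. The core lies between 66.6 and 130 over the 4 panels, while the distal block and the shoulders, drawn from raised P 4 h peaks, have medians of 8.68 and 13.0 in P cells and 2.40 and 3.49 in C cells at 4 h.

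The raised peaks fell into 2 blocks, drawn from runs of at least 10 neighbouring P 4 h members at 3 times the genome or more, so that every P 4 h peak of a block is raised by construction while C peaks were under no such condition. Within the blocks a P 4 h value above the C 4 h value is therefore favoured by how the blocks were drawn, and the 2 are set side by side as a description. The distal block spans 1.159 Mb, chr10:106637893-107797365, with 56 P 4 h peaks. The proximal block spans 1.929 Mb, chr10:116120529-118049559. Within it a core of 0.354 Mb, chr10:116830002-117183695, holds an unbroken run of 25 P 4 h peaks at 50 times the genome or more. The position that the rule gives for Mdm2 falls in this core. The rest of the proximal block is called the shoulders, with 56 P 4 h peaks.

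The core was raised in every library, in P cells at 4 h by construction, since it was drawn on that list. In C cells at day −2 its 2 peaks had backgrounds of 86.4 and 104 times the genome. In P cells at day −2 its 3 peaks had 84.4, 84.4 and 78.0 times. At 4 h the 14 core peaks of C cells ran from 72.5 to 113 times, with a median of 86.9 (95% order-statistic interval 78.0 to 104), and the 25 of P cells from 66.6 to 130, with a median of 97.0 (86.8 to 109). The 2 ranges at 4 h overlapped, and the intervals of their medians did too. At day −2 the 2 C values lay above the 3 P values. These intervals, like all others given here, cover counting error over peaks of 1 library, and neighbouring peaks share input reads.

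The broadest window gave the same level with many reads behind it. For C cells at 4 h, the 4 core peaks whose background came from the 10 kb window had 2117 to 2557 reads there, 72.5 to 87.6 times the genome. In P cells the 5 such peaks had 2077 to 2575 reads, 71.7 to 88.9 times. The high density in the core was therefore present over 10 kb and not confined to the summits of these 9 peaks.

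The shoulders were drawn on the P 4 h values. In P cells at 4 h the median over 56 shoulder peaks was 13.0 times the genome (11.0 to 13.5), with the lowest at 4.34 and the highest at 93.4. The 19 of C cells had a median of 3.49 (2.40 to 4.80), with the lowest at 1.10 and the highest at 87.7. Single peaks of the 2 lists overlapped. On the side of lower coordinates the medians were 13.0 in P cells (32 peaks) and 3.84 in C cells (12 peaks), and on the other side 13.0 (24 peaks) and 2.64 (7 peaks). Among peaks read from the 10 kb window, P cells had 198 to 651 reads, 6.83 to 22.5 times the genome (11 peaks), and C cells 32 to 102 reads, 1.10 to 3.49 times (7 peaks). In P cells at day −2 the 3 shoulder peaks had 9.63, 9.63 and 19.0 times, the last on 9 reads of the fragment-length window. The blocks were not drawn on this library, but the window had been selected on the input values described here. Each of the 3 peaks also overlaps a P 4 h peak of the block, so they are no independent check.

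**Figure D2:**
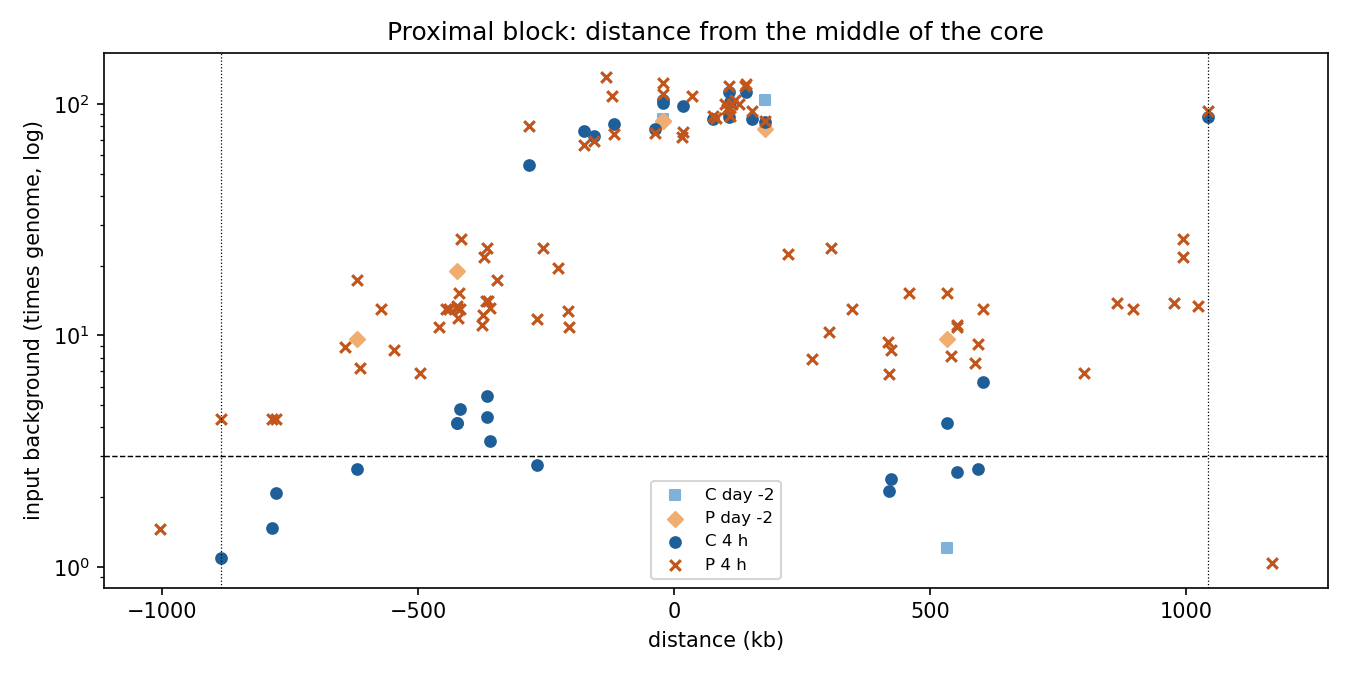
Input background of the peaks in and around the proximal block, in multiples of the genome background on a log axis, against the distance in kb from the middle of the core, with 1 point per peak and 1 symbol per list. Dotted lines mark the ends of the block and the dashed line 3 times the genome. C and P points mix in the core. At 4 h the medians on the lower and upper side of it are 13.0 and 13.0 in P cells and 3.84 and 2.64 in C cells, in a block drawn from raised P 4 h peaks.

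The distal block, which lies toward lower coordinates, was drawn in the same way. For its 56 P 4 h peaks the median was 8.68 times (7.59 to 10.9), from 3.18 to 86.8, and its 15 C 4 h peaks a median of 2.40 (2.09 to 4.18), from 1.75 to 6.27. In the 10 kb window P cells had 92 to 348 reads, 3.18 to 12.0 times (12 peaks), and C cells 51 to 63 reads, 1.75 to 2.16 times (4 peaks). All 6 raised C 4 h peaks of this block rested on 2 or 3 reads of the fragment-length window, whereas 5 of the 56 P 4 h peaks did. Over the whole lists, 1507 raised C 4 h peaks rested on 2 and 323 on 3 such reads, of 2228, and 2981 and 764 of 4853 raised P 4 h peaks. The 4 distal peaks of P cells at day −2 ran from 6.33 to 12.7 times. C cells had no day −2 peak here.

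**Figure D3:**
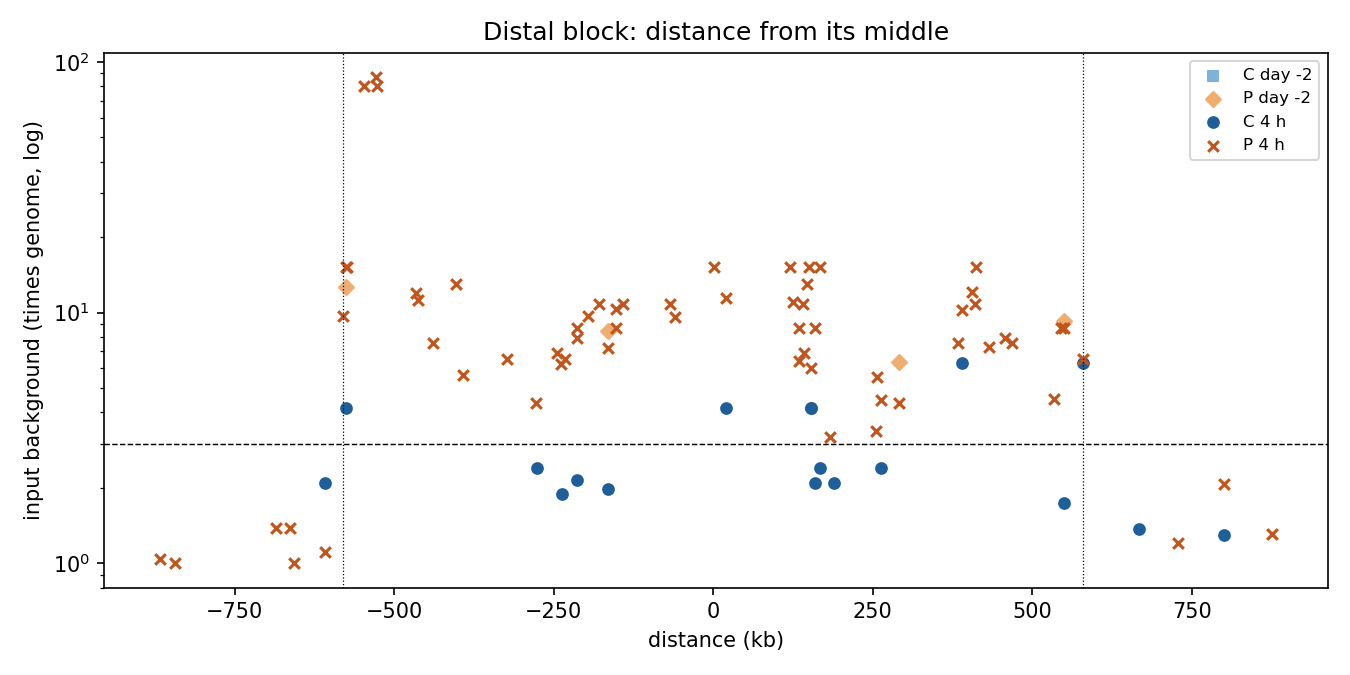
Input background of the peaks in and around the distal block, in multiples of the genome background on a log axis, against the distance in kb from the middle of the block, with symbols and lines as for the proximal block. Within the block, which was drawn from raised P 4 h peaks, the P 4 h points lie between 3.18 and 86.8 and the C 4 h points between 1.75 and 6.27.

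Away from the blocks the window was close to the rest of the chromosome. The 122 remaining P 4 h peaks had a median of 1.43 (1.31 to 2.17) and the 47 remaining C 4 h peaks 1.37 (1.23 to 1.71), and none of these reached 10 times the genome. The rest of chromosome 10 had medians of 1.73 (1397 P peaks) and 1.71 (613 C peaks). Of the 15 raised P peaks outside the blocks, 14 rested on 2 reads and 1 on 3, and the single raised C peak rested on 2.

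The block ends were set where the P 4 h background crosses 3 times the genome, so a step there in P cells is fixed by the drawing, and its size is given as a description. Going up the chromosome, the background was 1.10 at chr10:106608858-106609031 and 9.67 at the first peak of the distal block, 28.9 kb further on. At the upper end of that block it was 6.51, and 1.21 at the next peak, 148 kb away. The lower border of the proximal block was less sharp. Its first 3 peaks had 4.34 times each, on 2 reads, after 1.45 at the last peak before it. Entering the core, the background went from 10.9 to 66.6 over 28.1 kb, and leaving it from 84.7 to 22.5 over 45.5 kb. At the upper end of the proximal block it fell from 93.4 to 1.04 over 125 kb, but this last peak stands apart, and the member before it, which starts at 118029803, had 13.5. In C cells the background went from 2.09 to 4.18 at the lower end of the distal block, on 1 and 2 reads, and from 6.27 to 1.37 at its upper end. At the lower end of the proximal block it went from 2.09 to 1.10, downward on entering the block. It went from 2.74 to 76.1 over 90.9 kb at the lower end of the core and from 83.3 to 2.12 over 242 kb at its upper end. At the upper end of the proximal block it went from 87.7 to 1.16 over 369 kb.

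Some peaks reached core level outside the core. At chr10:116722120-116722343, 108 kb from the core, P cells at 4 h had 80.3 times the genome, and the overlapping C peak had 54.3. At chr10:118049335-118049559, 866 kb from the core and the last peak of the proximal block, the values were 93.4 in P cells and 87.7 in C cells. These sites were high in both cell types, like the core. In the distal block 3 P 4 h peaks, at chr10:106670334-106670551, chr10:106688290-106688558 and chr10:106690434-106690649, had 80.3, 86.8 and 80.3 times, and C cells had no peak there to compare. All 7 of these values came from the fragment-length window, with 26 to 43 input reads under the summit.

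In bins of 0.5 Mb, 28 of the 30 bins of the window held a P 4 h peak and 21 a C 4 h peak. Among bins with at least 3 peaks, the median background was at least 3 times the genome in 7 of 21 for P cells, against 4.08% of such bins over the genome, and in 4 of 15 for C cells, against 5.64%. The highest P medians were in the bins starting at 117.0 Mb (87.9), 116.5 Mb (14.6), 117.5 Mb (12.0) and 107.0 Mb (9.60). The corresponding C medians were 86.9, 29.9, 3.41 and 2.40, so the bin that starts at 117.0 Mb, with most of its peaks in the core, was alike in both lists.

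P cells were at least 2-fold above C cells in 4 of the 14 bins with at least 3 peaks in both, against 2.46% of such bins over the genome. These were the bins starting at 116.0 Mb, with medians of 7.25 in P and 1.78 in C cells and a log2 ratio of 2.02, at 107.0 Mb with 2.00, at 117.5 Mb with 1.82 and at 106.5 Mb with 1.69. C cells were at least 2-fold above P cells in 1 bin, against 1.66% over the genome, the bin that starts at 116.5 Mb, at a log2 ratio of −1.03. That bin joins core and lower shoulder, and P cells had 32 peaks in it against 14 in C cells, so its median depends on how many peaks each list holds in either piece. Neighbouring bins of the P list that both held at least 3 peaks differed by at least 2-fold at 8 borders. The steps at 106.5 Mb (1.00 to 7.25), 108.0 Mb (7.77 to 1.69), 116.5 Mb (7.25 to 14.6), 117.0 Mb (14.6 to 87.9), 117.5 Mb (87.9 to 12.0) and 118.0 Mb (12.0 to 1.48) bound or cross the blocks. The other 2 of these borders, at 109.0 Mb (2.07 to 1.00) and 109.5 Mb (1.00 to 2.17), lie between low medians. The bin before the proximal block, which starts at 115.5 Mb, held 2 P peaks with a median of 1.64, and the next bin had 7.25.

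Peaks present in both 4 h lists allow a comparison at the same place. There were 86 C peaks of the window that overlapped a P peak, and 84 P peaks that overlapped a C peak. P background was at least 2-fold above C background at 30 of the 86 pairs, against 18.1% of the 11616 pairs over the genome. It was so at 17 of 19 pairs of the shoulders, 8 of 14 of the distal block, 0 of 14 of the core and 5 of 39 elsewhere in the window. The median log2 ratio of P over C background was 1.80 in the shoulders (1.44 to 2.10), 1.58 in the distal block (0.52 to 2.06), 0.03 in the core (−0.19 to 0.14), and 0.06 for the pairs outside the window (0.06 to 0.06). In the blocks the P value of a pair had to reach 3 times the genome and the C value did not, so these counts and ratios lean toward P by construction.

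**Figure D4:**
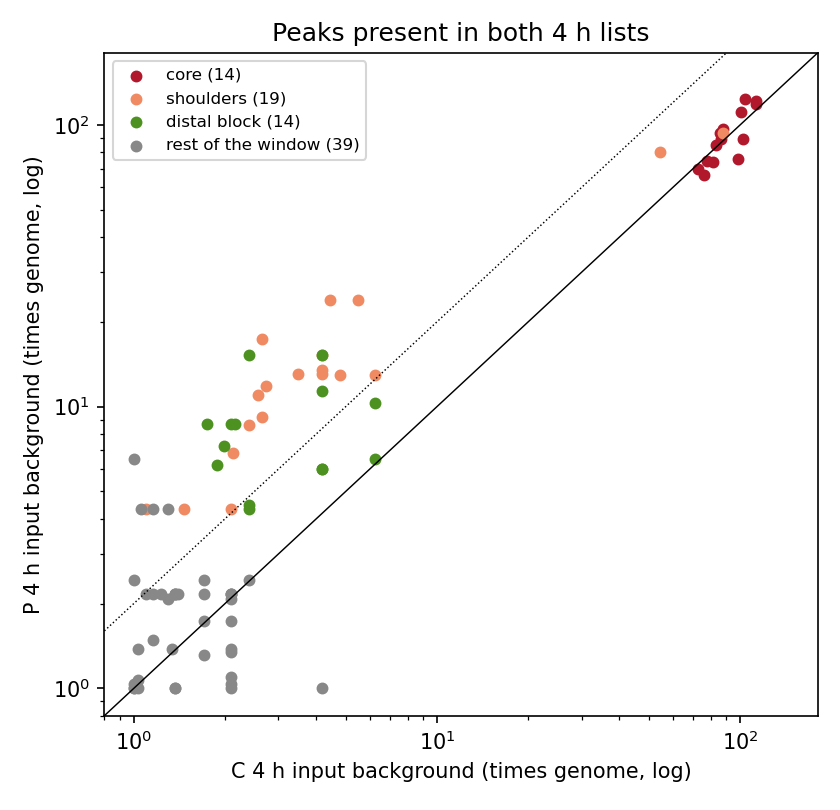
P 4 h against C 4 h input background, both in multiples of the genome background on log axes, at the 86 C peaks of the window that overlap a P peak, coloured by segment. The solid line marks equal values and the dotted line a P value 2-fold higher. Core pairs lie about the solid line, and 17 of the 19 shoulder pairs and 8 of the 14 distal pairs lie on or above the dotted one.

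ChIP fragments were compared at the same pairs. At the shared 4 h peaks the median log2 ratio of P over C fragments was 2.07 in the distal block (1.32 to 2.44) and 1.79 in the shoulders (1.22 to 2.50), against 0.88 in the rest of the window (0.62 to 1.18) and 0.70 outside the window (0.69 to 0.72), where the background ratios were both 0.06. In the core it was 0.18 (−0.08 to 0.42). The fold enrichment, which divides by the background, had median log2 ratios of 1.10 in the distal block (0.31 to 1.76), 0.54 in the shoulders (0.09 to 1.12) and 0.24 in the core (−0.05 to 0.45), against 0.62 outside the window (0.60 to 0.64). Since the blocks were drawn on high P 4 h background, which the fold divides by, a lower ratio of folds than of fragments is favoured there by construction. What share of the added fragments is C/EBPβ binding was not tested.

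The core joined very many ChIP fragments with low fold enrichment. Its C 4 h peaks had a median of 156 fragments at the summit and 3.24-fold enrichment, against 17.0 fragments and 9.07-fold in the whole list. In P cells the values were 136 fragments and 3.44-fold, against 21.0 fragments and 10.9-fold. The peak with the lowest fold enrichment of the whole list was a member in C cells at day −2 (2.13-fold), in P cells at day −2 (2.70-fold) and in P cells at 4 h (1.68-fold), and in C cells at 4 h it was not (1.74-fold). Shoulder and distal peaks lay between, with median fold enrichments of 7.06 and 8.81 in P cells.

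**Figure D5:**
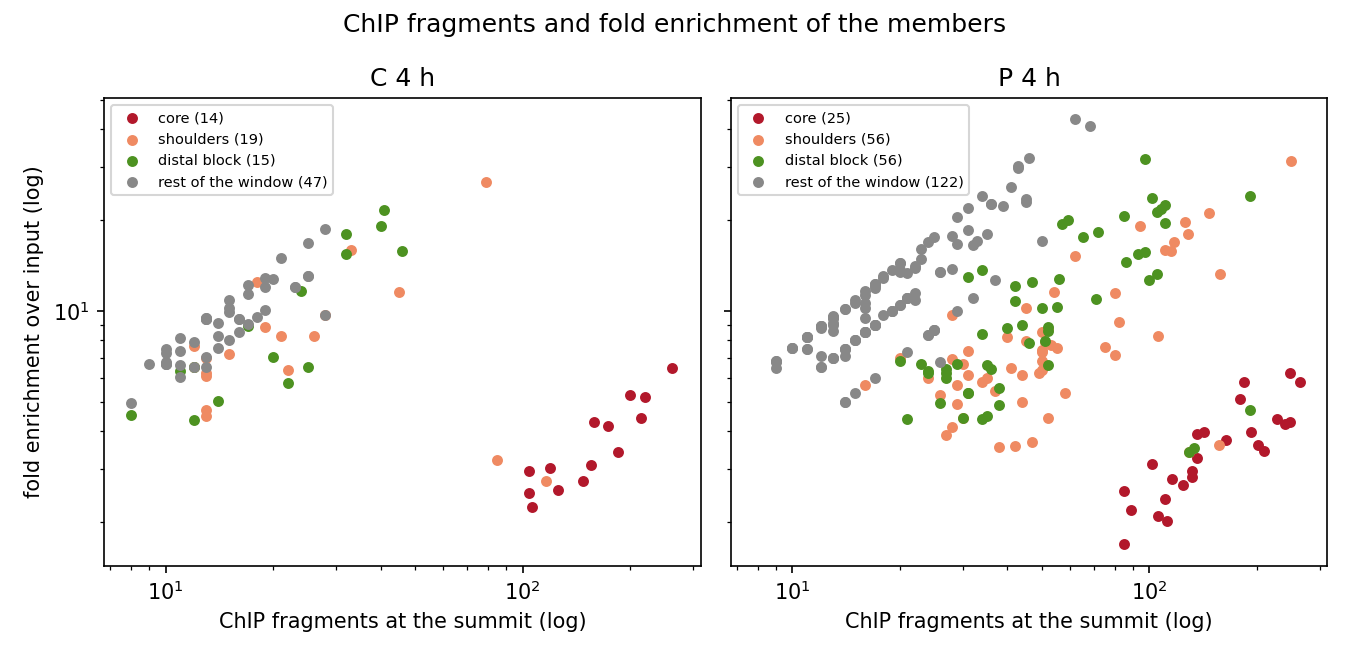
Fold enrichment over input against ChIP fragments at the summit, both on log axes, for the members of the C 4 h and P 4 h lists, coloured by segment with the number of peaks in brackets. In P cells core peaks combine 85 to 265 fragments with 1.68- to 6.22-fold enrichment, and some P peaks outside the core reach higher folds in that range of fragments.

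The strongest and densest members can be named. In C cells at 4 h the highest backgrounds were at chr10:117113368-117113831 and chr10:117146452-117146830, both at 113 times the genome with 54 input reads under the summit (exact 95% Poisson interval 40.6 to 70.5). In P cells at 4 h they were at chr10:116873928-116874749, with 130 times and 60 reads (45.8 to 77.2), and at chr10:116984322-116984864, with 124 times and 57 reads (43.2 to 73.9). All 4 lie in the core. By −log10 p the leading P 4 h members were instead a shoulder peak, chr10:117540327-117540973, at 283, and a distal one, chr10:106642378-106642838, at 196. In P cells at day −2 the same 2 sites led, at 166 and 93.9. The leaders in C cells at 4 h were the core peak chr10:117183433-117183688, at 121, and the shoulder site, at 95.8.

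Every day −2 member had a 4 h peak in the same cells, so the 2 times can be set side by side at 11 sites of P cells and 3 of C cells. Most day −2 peaks outside the window had one as well, 1620 of 1642 in P cells and 788 of 835 in C cells. The core site chr10:117183446-117183692, close to the upper end of the core, was in all 4 lists. Its background was 104 times the genome in C and 78.0 in P cells at day −2, and 83.3 and 84.7 at 4 h. The ChIP fragments there were 164 and 176 at day −2 and 262 and 248 at 4 h. Background was between 78.0 and 104 in the 4 libraries, and fragments were higher at 4 h in both cell types. At another core site of all 4 lists, chr10:116985583-116985843, the backgrounds were 86.4 in C and 84.4 in P cells at day −2 and 101 and 111 at 4 h, with 116, 110, 215 and 228 fragments. The neighbouring core site chr10:116984378-116984790, had no C peak at day −2, and its backgrounds were 84.4 in P cells at day −2, 104 in C and 124 in P cells at 4 h.

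The shoulder site chr10:117540353-117540895 was also in all 4 lists, and there the P value was above the C value at both times. The background was 1.20 times the genome in C and 9.63 in P cells at day −2, and 4.18 and 15.2 at 4 h. The C values rest on 35 reads over 10 kb at day −2 and on 2 reads under the summit at 4 h, so the C values of the 2 times come from different windows, and the 4 h values of both cell types have wide counting intervals, 0.242 to 7.22 reads in C and 2.81 to 14.4 in P cells. The fragments were 12 in C and 150 in P cells at day −2 and 79 and 249 at 4 h. The fold enrichments were 7.43 and 27.0 at day −2 and 26.8 and 31.2 at 4 h.

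The other day −2 sites belong to the P list alone at that time. In the distal block, chr10:106642520-106642820 had a background of 12.7 in P cells at day −2, 15.2 in P cells at 4 h and 4.18 in C cells at 4 h. At chr10:107052645-107052895 the values were 8.44, 7.25 and 1.99, and at chr10:107767078-107767317 they were 9.28, 8.68 and 1.75. At chr10:107508537-107508764 they were 6.33 and 4.34 in P cells, with no C peak. In the shoulders, chr10:116386535-116386716 had 9.63, 17.4 and 2.64, and chr10:116583083-116583250 had 19.0, 13.5 and 4.18. At each of these block sites with a C 4 h peak, both P values were above the C value. The P 4 h value is favoured there by how the blocks were drawn, and the P day −2 value is set against C cells at another time. Some values rest on few reads, 6 in P cells at day −2 and 2 in C cells at chr10:106642520-106642820, and 9 and 2 at chr10:116583083-116583250. Others come from unlike windows, as at chr10:107052645-107052895, with 4 reads under the summit in P cells at day −2 and a 10 kb window in C cells. The site outside the blocks, chr10:115334018-115334180, had 1.38 in P cells at both times and 1.03 in C cells at 4 h.

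Across these pairs the median log2 ratio of 4 h over day −2 background was 0.12 in P cells (11 pairs, −0.54 to 0.85 from lowest to highest) and 0.22 in C cells (3 pairs, −0.32 to 1.79), where it became −0.17 if backgrounds were not divided by each library's genome level. Outside the window it was 0.04 in P (1620 pairs) and 0.02 in C cells (788 pairs). Fragments at the same pairs were higher at 4 h, with median log2 ratios of 0.91 in P and 0.89 in C cells, against 1.37 and 0.94 outside the window.

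Peaks were also more numerous in P than in C cells at 4 h by different amounts. The ratio of P to C peaks was 3.73 in the distal block (56 and 15), 2.95 in the shoulders (56 and 19), 1.79 in the core (25 and 14) and 2.60 elsewhere in the window (122 and 47), against 1.98 over the whole lists. The blocks were drawn from runs of at least 10 neighbouring P 4 h peaks, so a high ratio in them is favoured by construction. Of the C 4 h members 90.5% were shared with P cells (95% Wilson interval 83.0 to 94.9), against 85.9% of the whole list, and of the P 4 h members 32.4% were shared with C cells (27.0 to 38.4), against 43.2%. Among P 4 h peaks of the distal block, those with a C peak had a median of 100 fragments and 19.5-fold enrichment (13 peaks), and those without had 38.0 fragments and 6.67-fold (43 peaks). The backgrounds of both kinds were alike, with medians of 8.68 and 9.67. In the shoulders the median background was 13.0 with and without a C peak. In the core the 11 peaks of P cells alone had 112 fragments and 2.52-fold enrichment, against 182 fragments and 4.10-fold at the 14 shared ones. How far the raised background itself moved the number of peaks called was not tested.

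At the limits of the window the background was low or rested on few reads. The P 4 h members nearest the lower and upper limit had 1.04 and 2.17 times the genome, and the nearest peaks beyond had 1.00 and 4.34. The C 4 h members had 1.00 and 2.40 and the peaks beyond 1.03 and 2.74.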

How the data were processed

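Reads from an Ion Torrent instrument had been aligned by the authors to mm9 with Bowtie 0.12.8, keeping unique alignments, freed of duplicates, down-sampled with SAMtools 1.3.1 and passed to MACS2 2.0.10.20131028, 1 ChIP library against its input. The authors deposited for each peak a fold enrichment, which is a ratio of ChIP to local input with 1 added to each, a −log10 p and −log10 q value, and the distance of the summit from the peak start. The lowest −log10 p lay between 5.00 and 5.39 in the 4 lists. The 4 score columns, 1 per list, were not used.

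ChIP fragments and background at each summit were recovered from the fold and the Poisson p (Python 3.11.15, scipy 1.17.1, pandas 2.3.3, numpy 2.4.6) and 100% of peaks gave a whole number of fragments within a tolerance of 0.002 in −log10 p. The ChIP scale was 0.996 and 0.999 in P cells at day −2 and 4 h, and the input scale 0.997 and 0.995 in C cells. The recovery was tested on simulated data, but no outcome of that test is given here, so it does not vouch for the recovered values. The shortest peak (215, 163, 164 and 159 bp in C and P cells at day −2 and C and P cells at 4 h) was taken as the fragment length, which with a genome size of 2.7e9 gives the depth. Steps in the background show which window set it, and MACS2's usual windows of 1 kb and 10 kb were assumed. Being the highest of several noisy estimates, the background leans upward. Peaks were shared when they overlapped by at least 1 bp, and a C peak that met several P peaks was set against the one with the largest −log10 p. Intervals are order-statistic for medians, Wilson for shares (statsmodels 0.14.6) and exact Poisson for reads, and cover counting error only. Named peaks were the 2 of highest background and the 2 of highest −log10 p of each list, all day −2 members, those next to the window limits and the 4 leading bins by P median and by log2 ratio, and core-level peaks outside the core were named after their values were seen. The members, blocks and lists were chosen with earlier results of these data known. Alternatives covered thresholds, bins, filters on peaks, overlap rules and scaling, and 18 genes were looked up by name. All 18 were on chromosome 10 of GRCm38.p6, and no value was tied to any of them.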

Additional observations from a re-analysis of the deposited data

How the results depend on the processing

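No paired analysis was possible because each group held 1 library. Of 86 alternative values, 57 stayed within 1.5 times a count or within the interval of a median or share, 28 did not, and 1 changed direction. Causes were not tested beyond the fewer peaks that a filter leaves. The number of raised members in P cells at 4 h, 152, became 90 at a threshold of 10. It became 64 without the peaks whose background came from the fragment-length window. This setting, called below without the fragment-length window, leaves those peaks out and recomputes no background. Both raised core members of C cells at day −2 were among the peaks it left out. In C cells at 4 h, 31 became 58 at a threshold of 2, 20 at 5, 16 at 10, 15 at a fold of at least 5, 18 after division by the list median and 13 without the fragment-length window. In P cells at day −2, 10 became 5 at a threshold of 10, 6 at a fold of at least 5 and 3 without the fragment-length window, and in C cells at day −2, 2 became 0 under the last 2 of these. The median background of the members, 4.52 in P cells at 4 h, became 2.08 after division by the list median, 3.28 at a fold of at least 5 and 2.07 without the fragment-length window. In C cells at 4 h, 2.09 became 1.00 after that division and 1.71 without that window, and in P cells at day −2, 9.63 became 4.56 after that division. In C cells at day −2 the median of 3 members, 86.4, became 45.7 after that division and 1.20 at a fold of at least 5 or without that window, all within its interval of 1.20 to 104, which is the whole range of these 3 peaks. Raised bins in P cells, 7, became 17 with bins of 0.25 Mb, 4 with 1 Mb and 14 at a threshold of 2. In C cells, 4 became 2 with bins of 1 Mb, with shifted bins, with at least 5 peaks and at a threshold of 5, and 8 at a threshold of 2. The share of C 4 h members that are common, 90.5%, became 76.8% with 50% reciprocal overlap. The threshold of 10, the exclusion of the fragment-length window and the pairs without the core were chosen after seeing the data. The median log2 ratio of P over C background at all shared 4 h pairs was 0.52 (0.11 to 0.86). It became 0.69 without the core, 0.51 with summits within 100 bp, 0.47 with undivided backgrounds, 0.34 with 50% reciprocal overlap, 0.25 at a −log10 p of at least 10 and 0.15 without the fragment-length window. The log2 ratio of 4 h over day −2 background in C cells, 0.22 over 3 pairs, became −0.17 with undivided backgrounds, which scale with the fragment length of each library. Depth limits values under about 5 times the genome, which 2 reads can give.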

Other observations

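Core-level backgrounds also occurred elsewhere in the genome. Of 39 P 4 h peaks at 50 times the genome or more, 9 lay outside the window, and of 24 C 4 h peaks, 8 did. The highest value of each 4 h list was among these, 180 in P cells and 217 in C cells. By this value, the highest of 4 estimates under a single summit, the core was thus not the densest place at 4 h. Among peaks read from the 10 kb window the order was the other way. Their highest background was 88.9 in P and 87.6 in C cells in the core, and 55.3 and 32.2 outside the chromosome 10 window. The density over 10 kb is not known for peaks whose background came from a shorter window, the highest peaks of both 4 h lists included. The core is therefore not shown to be the densest place over 10 kb. At day −2 all 3 such peaks of P cells and both of C cells were members.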
